A study of Mus musculus with 46 samples.

Results

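The miRNAs described here are both arms of miR-124 and miR-9, namely mmu-miR-124-3p, mmu-miR-124-5p, mmu-miR-9-5p and mmu-miR-9-3p, chosen by name and followed over tissue, storage temperature, storage time and RNA integrity. These 4 are among 1881 mouse miRNAs on the array and among 815 that were detected on at least 5 arrays and analysed. Total RNA of brain, heart and liver of male C57BL6 mice was hybridised to 1-colour arrays after each organ had been cut into 8 pieces of about equal size and left for 0, 1, 3, 6, 12, 24, 48 or 96 h, either cold at 4 °C or at room temperature (RT). All animals, the unstored ones included, carried an Il1a knock-out, and their age is not given in the sources used here. Of 46 deposited arrays 45 were analysed. Unstored heart of the 4 °C series was left out for low array quality. The groups hold 8 brain, 7 heart and 6 liver arrays at 4 °C and 8 arrays of each tissue at RT. Each group is 1 slide with the pieces of 1 animal. The methods of the study state that all tissues were taken from the same individual. By their RIN values, though, brain and liver of a temperature match the same animal in the sample list of the study, and heart another. Slide, animal and storage temperature cannot be told apart within a tissue. Arrays of a group differ in storage time, there is no second array of any piece, and p-values measure only the scatter between pieces of these animals.

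miR-124 is abundant in neurons of the mammalian brain, where it represses transcripts of non-neuronal cells, among them the splicing regulator Ptbp1. miR-9 is made in neural progenitors and in neurons, acts on the progenitor factors Nr2e1 and Hes1, and is known for the use of both of its arms. A miRNA hairpin is cut into a 5p and a 3p strand, and usually one of them, for miR-124 the 3p arm, is loaded into Argonaute as the guide while the other is mostly discarded.

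The mature sequences of miR-9 (RefSeq, build GRCm38.p6) are shown, and those of miR-124 were not in the sequence reference used. The arms of both hairpins changed by different amounts at RT. The seed, bases 2 to 8 from the 5′ end, is in capitals.
mmu-miR-9-5p: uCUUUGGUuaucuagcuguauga
mmu-miR-9-3p: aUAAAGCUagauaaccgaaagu
The 5p arm has 23 bases, of which 47.8% are U, and the 3p arm has 22 bases, and A is its commonest base. Their G and C content was close, at 34.8% and 31.8%. Of 1608 miRNAs on the array with a sequence, 0 others share the seed of either arm, so that no family member could be set beside them. Both mature sequences are made from 3 hairpins, shown with both arms in capitals, and the array cannot tell these loci apart.
Mir9-1: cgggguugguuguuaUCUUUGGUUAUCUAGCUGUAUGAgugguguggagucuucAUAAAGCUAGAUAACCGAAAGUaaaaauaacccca
Mir9-2: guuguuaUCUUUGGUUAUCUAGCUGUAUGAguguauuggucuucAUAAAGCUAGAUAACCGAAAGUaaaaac
Mir9-3: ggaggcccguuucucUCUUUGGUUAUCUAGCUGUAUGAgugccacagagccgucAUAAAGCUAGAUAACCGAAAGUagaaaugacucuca
Mir9-1 lies at chr3:88215598-88215686 within the long non-coding RNA gene Gm3764. Mir9-2 lies at chr13:83738814-83738885 within C130071C03Rik, and Mir9-3 at chr7:79505264-79505353 within Mir9-3hg, all on the plus strand.

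Levels are log2 values after variance stabilizing normalization (VSN), which scales the arrays to each other and evens out the spread of dim and bright signals. A miRNA counts as detected on an array where the scanner software flagged it so. The summed signal of detected miRNAs ran from 249616 to 504440 units on the brain arrays, and 0 spots of the 4 arms were saturated. The number of arrays limits the precision. RNA integrity is given as the RIN value of the labels, where a higher value stands for more intact RNA. In brain it stayed between 7.3 and 8.7 at 4 °C and at RT it fell from 8.4 at 0 h to 5.5 at 48 h and 3.3 at 96 h. The brain label was checked on 20 other neural miRNAs, of which 20 were detected on every brain array.

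Both arms of miR-124 and of miR-9 were high in brain, and in heart and liver they were detected on few arrays and at low signal. Every brain array lay above every heart and liver array for each of the 4 arms, as it did for 15.5% of all 815 miRNAs. Over the 16 brain arrays, miR-124-3p ranged from 12.97 to 13.86 with a median of 13.41 and a mean of 13.44 ± 0.24 (SD, n = 16), and its scanner signal from 7191 to 17382 units. The level of miR-9-5p ranged from 9.84 to 12.88 with a median of 11.99. That of miR-9-3p ranged from 11.09 to 13.30 with a median of 12.00. The passenger arm miR-124-5p ranged from 3.87 to 6.31 with a median of 5.08, a signal of 23.7 to 72.1 units, and it was detected on 16 of 16 brain arrays like the other three. Levels of different probes are not set against each other here, since each probe binds with its own strength.

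In heart and liver, miR-124-5p was detected on 0 of 15 and 0 of 14 arrays. On the slides without a detected array, a lower bound was set on the difference from the brain mean of the same temperature. For this bound, each heart or liver array entered at the higher of its lowest detected signal and the measured value. By it, miR-124-3p was at least 4072-fold lower in heart and at least 3439.5-fold lower in liver at 4 °C. miR-124-5p was at least 13.3-fold lower in heart at either temperature, and at least 11.3-fold and 16.5-fold lower in liver at 4 °C and RT. At 4 °C, miR-9-3p was at least 1059.7-fold lower in heart and 1256-fold lower in liver, and miR-9-5p at least 1370.1-fold lower in liver. The much smaller bounds of miR-124-5p go with its dim signal in brain.

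The comparison over slide means, with 2 slides per tissue, put all 4 arms higher in brain. Between brain and heart the limma adjusted p was 0.000295 for miR-124-3p, 7.18e-05 for miR-124-5p, 3.87e-05 for miR-9-5p and 0.000111 for miR-9-3p. Between brain and liver it was 0.000314, 7.19e-05, 2.47e-05 and 5.61e-05 in the same order. Of all 815 miRNAs, 32.0% were called between brain and heart and 36.2% between brain and liver, and 22.6% and 31.2% were called higher in brain. In pieces of whole tissue, fewer cells of a type and less of a miRNA per cell cannot be told apart.

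**Figure D1:**
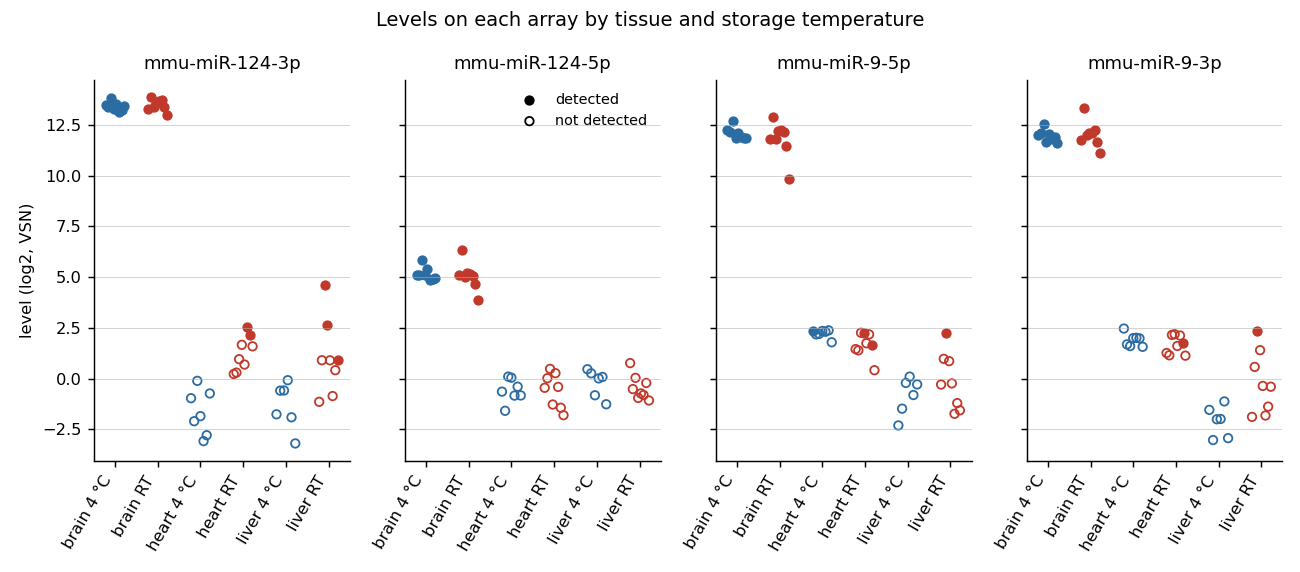
Level (log2, VSN) of each of the 4 arms on each of the 45 arrays, by tissue and storage temperature, with arrays of a group ordered by storage time from left to right. Filled points are detected and open points not detected. All 16 brain arrays are filled and lie above every heart and liver array, and in heart and liver a filled point is rare and never occurs for miR-124-5p.

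The few detections outside brain were dim. In heart, miR-124-3p was detected on 2 of 8 arrays at RT, at 2.54 (24 h) and 2.17 (48 h), and on 0 of 7 at 4 °C. miR-9-5p was detected in heart at 1 h at 4 °C (2.33) and, at RT, at 6 h (2.25) and 48 h (1.66). miR-9-3p was detected in heart only after 48 h at RT (1.77). On that heart array, with an RIN of 4.6, 3 of the 4 arms were thus flagged as detected. It had 589 miRNAs detected in all, against 374 to 683 on the heart arrays at RT. The flag did not follow the signal strictly. In heart at RT, miR-124-3p was flagged at 3.96 units (24 h) and not at 4.96 units (96 h).

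Among liver arrays, that of 3 h at RT also had 3 of the 4 arms flagged as detected. Their levels were 4.61 for miR-124-3p, 2.22 for miR-9-5p and 2.35 for miR-9-3p. In all, 430 miRNAs were detected on it, against 310 to 726 on the liver arrays at RT. miR-124-3p was further detected in liver stored at RT for 6 h (2.65) and 96 h (0.90). None of the 4 arms was detected on any of the 6 liver arrays at 4 °C. Of the 20 other neural miRNAs, 9 were detected on the liver array of 3 h at RT, against 5 to 10 on the liver arrays at RT. Their summed signal there was 666 units, the highest of that slide, where the lowest was 145. It was close to 609 units at 6 h at RT and 600 units after 48 h at 4 °C. The brightest of them, miR-212-3p, was at 9.38 there and at 8.06 in liver at 0 h of the RT slide. Brain RNA in the liver sample of 3 h at RT was not tested as a source. Without this array all 4 arms were still called higher in brain than in liver, with limma adjusted p of 0.000197 for miR-124-3p and 3.5e-05 for either arm of miR-9.

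At RT the level of miR-9-5p in brain fell, and most of the fall lay between 48 h and 96 h. From 0 to 96 h its levels were 11.80, 12.88, 11.80, 12.21, 12.25, 12.16, 11.46 and 9.84. The array of 96 h was 5.07-fold and that of 48 h 1.65-fold below the mean of 0 to 24 h (12.18 ± 0.40, SD, n = 6), and both lay below all 6 of those arrays. How many of all 815 miRNAs separate in this way was not counted. The slope was -0.58 ± 0.10 (SE) log2 per 24 h of storage (95% interval -0.79 to -0.36, limma adjusted p = 0.00028), which ranked 15 of 815 miRNAs from the lowest.

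miR-9-3p, the other strand of the same hairpins, fell less far. Its levels at RT were 11.73, 13.30, 11.98, 12.09, 12.11, 12.26, 11.65 and 11.09. The last array was 2.22-fold below the mean of 0 to 24 h (12.24 ± 0.55, SD, n = 6). The arrays of 48 h and 96 h were again the lowest of the slide, which was not counted over all miRNAs. Its slope was -0.31 ± 0.11 after VSN (limma adjusted p = 0.0226), and without scaling between arrays the direction turned, at 0.0346 (0.91).

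miR-124-5p, the passenger strand, fell as well. Its levels were 5.08, 6.31, 4.99, 5.21, 5.14, 5.06, 4.65 and 3.87, and the array of 96 h was 2.69-fold below the mean of 0 to 24 h (5.30 ± 0.50, SD, n = 6). The arrays of 48 h and 96 h lay below all early ones, which was not counted over all miRNAs. The slope was -0.39 ± 0.10 after VSN (limma adjusted p = 0.00474), and without scaling it was not called.

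After VSN miR-124-3p, the guide strand, moved least. Without scaling between arrays, or with quantile normalization, it did not. Its levels were 13.29, 13.86, 13.38, 13.57, 13.66, 13.74, 13.38 and 12.97, and the array of 96 h was 1.53-fold below the mean of 0 to 24 h (13.58 ± 0.22, SD, n = 6) while that of 48 h lay within their range. Its slope of -0.14 ± 0.07 (95% interval -0.29 to 0.02) did not pass the test (limma adjusted p = 0.105), and its direction turned under other scalings, as given below.

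So 3 of the 4 arms were called at RT after VSN, all lower, where 66.6% of all 815 miRNAs were called and 30.8% were called lower. All 3 calls were lost without the array of 96 h at RT, the one with an RIN of 3.3. Without it the slopes were -0.33 for miR-9-5p (limma adjusted p = 0.252), -0.41 for miR-124-5p (0.195) and -0.30 for miR-9-3p (0.363). Only that of miR-9-5p thus became much smaller, from -0.58. Those of miR-124-5p and miR-9-3p stayed close to their -0.39 and -0.31 with all arrays. Leaving out any other RT array kept these 3 calls, and without that of 0 h miR-124-3p was called as well (slope -0.17, limma adjusted p = 0.0439).

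**Figure D2:**
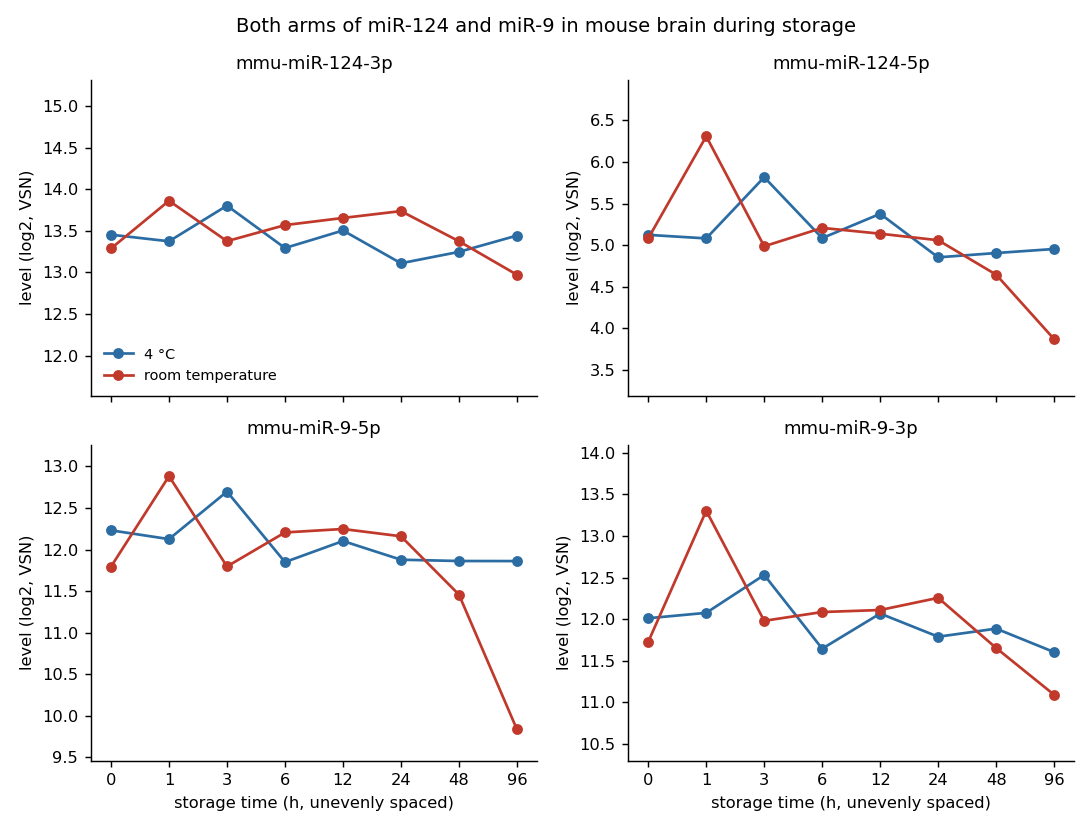
Level (log2, VSN) of each arm in brain against storage time, 1 point per array, at 4 °C (blue) and RT (red), on axes that span the same number of log2 units. The red line of each arm ends at its lowest point at 96 h, and the RT array of 1 h and the 4 °C array of 3 h are the highest of their slides in every panel.

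At 4 °C no slope of the 4 arms passed the test. miR-124-3p ranged from 13.11 to 13.80 with a median of 13.41, miR-124-5p from 4.85 to 5.82 with a median of 5.08, miR-9-5p from 11.85 to 12.70 with a median of 11.99 and miR-9-3p from 11.60 to 12.53 with a median of 11.95. The slopes per 24 h were -0.03 ± 0.07 for miR-124-3p, -0.10 ± 0.10 for miR-124-5p, -0.11 ± 0.10 for miR-9-5p and -0.12 ± 0.11 for miR-9-3p, with limma adjusted p from 0.517 to 0.814. For miR-9-5p the 95% interval reached from -0.32 to 0.11, so that a fall as steep as that at RT lies outside it. limma called 0.123% of all 815 miRNAs at 4 °C, which is 1 miRNA, and 134 had an unadjusted p under 0.05.

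The slopes at RT and 4 °C were compared directly. The difference was called for miR-9-5p, at -0.47 ± 0.14 log2 per 24 h (limma adjusted p = 0.0439), where 12.4% of 815 miRNAs were called and 1.6% were called lower. For the other arms it was -0.29 ± 0.15 (miR-124-5p, adjusted p = 0.209), -0.19 ± 0.15 (miR-9-3p, 0.414) and -0.11 ± 0.10 (miR-124-3p, 0.467), all by limma. The call for miR-9-5p was lost on leaving out any 4 °C array except that of 3 h, or the RT array of 6, 12, 48 or 96 h. The slope difference was -0.22 without the RT array of 96 h (limma adjusted p = 0.634) and -0.35 without the 4 °C array of 96 h (0.5).

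**Figure D3:**
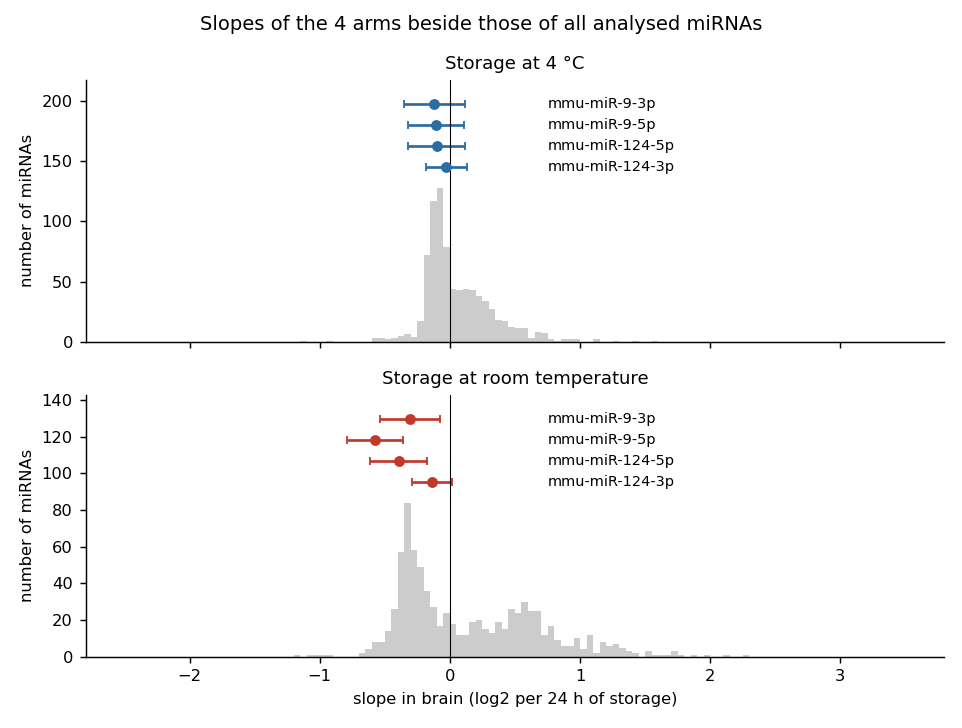
Slope in brain (log2 per 24 h of storage) of the 4 arms as points with 95% intervals above the counts of slopes of all 815 miRNAs (grey bars), at 4 °C (upper) and RT (lower). At RT the slopes of all miRNAs spread to both sides of 0 and miR-9-5p lies near the low end at -0.58, while at 4 °C all 4 intervals include 0.

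The arms of a hairpin were compared by how the difference 3p minus 5p changed with storage, in which the binding strength of the probes cancels. At RT the difference grew for both hairpins, that is, the 5p arm fell relative to the 3p arm. For miR-124 the changes from 0 h were -0.65 at 1 h, then 0.18, 0.15, 0.31, 0.47, 0.52 and 0.90 from 3 to 96 h. Apart from the array of 1 h, these values grew from 6 h onward. The slope was 0.25 ± 0.07 log2 per 24 h (limma adjusted p = 0.00654).

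For miR-9 the changes from 0 h were 0.49, 0.25, -0.05, -0.07, 0.16, 0.26 and 1.32 from 1 to 96 h, with most of the change in the last array. The slope was 0.27 ± 0.06 (limma adjusted p = 0.00332). Of 148 hairpins with both arms analysed, 46.6% were called at RT and 17.6% in this direction. Without the RT array of 96 h the slope of miR-9 was 0.03 (limma adjusted p = 0.859), and that of miR-124 was 0.37 (0.0678).

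At 4 °C the slopes of the arm difference were 0.07 ± 0.07 for miR-124 and -0.01 ± 0.06 for miR-9 (limma adjusted p = 0.626 and 0.942), where 0.676% of the hairpins were called. The difference between the temperatures was 0.28 ± 0.09 for miR-9 (95% interval 0.09 to 0.48, limma adjusted p = 0.0519) and 0.18 ± 0.10 for miR-124 (-0.03 to 0.39, 0.224). Neither passed the test, which 11.5% of the hairpins did, 3.38% in this direction. Each arm is read by 2 probes, and all 4 probe pairs of a hairpin gave a positive slope at RT. It was 0.23 to 0.35 for miR-124 and 0.27 for each pair of miR-9. The pairs share probes and arrays, so they are not replicates of each other. At 4 °C the pairs of miR-124 had positive slopes too, from 0.0641 to 0.0999, and those of miR-9 ran from -0.0234 to -0.00735.

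**Figure D4:**
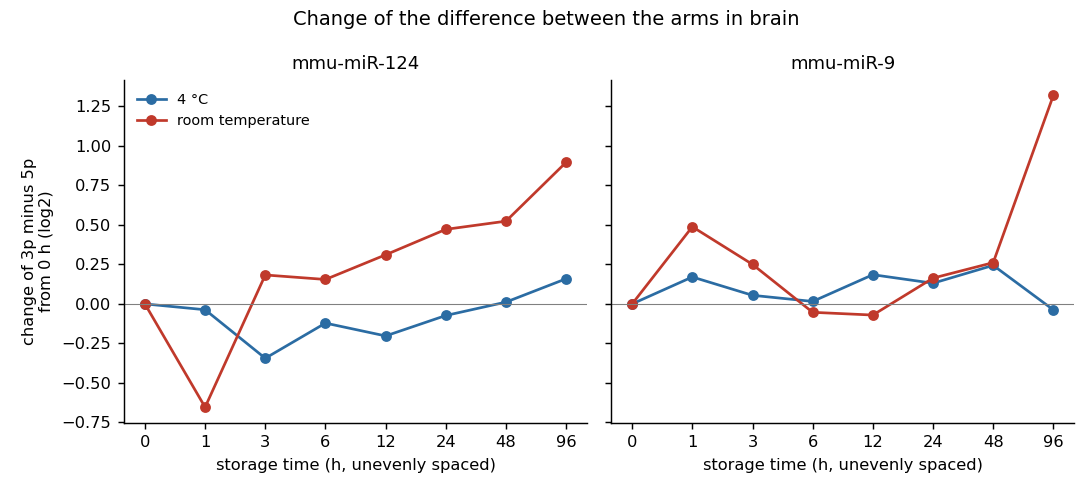
Change of the difference between the arms (3p minus 5p, log2) from its value at 0 h in brain, for miR-124 (left) and miR-9 (right), at 4 °C (blue) and RT (red), 1 point per array. At 96 h and RT it stood 0.90 above 0 h for miR-124 and 1.32 above for miR-9, and at 4 °C 0.16 above and 0.04 below.

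Set against RNA integrity over the 16 brain arrays with the slide as a block, the 4 arms kept the order they had over time. Per RIN unit, miR-9-5p was 0.40 ± 0.08 log2 higher (limma adjusted p = 0.000713), miR-124-5p 0.27 ± 0.08 (0.00844), miR-9-3p 0.21 ± 0.08 (0.0299) and miR-124-3p 0.09 ± 0.05 (0.131). Of all 815 miRNAs, 68.1% were called, 32.0% in this direction. At RT the RIN fell as storage time rose, and RIN and storage time cannot be told apart. Without the RT array of 96 h the 3 calls were lost, with limma adjusted p of 0.28, 0.3 and 0.405, and that of miR-9-3p was lost without the RT array of 48 h too (0.0521). Without scaling between arrays none of the 3 was called, at 0.14 for miR-9-5p (limma adjusted p = 0.207), 0.0139 for miR-124-5p (0.939) and -0.0398 for miR-9-3p (0.801), and miR-124-3p was called lower per RIN unit, at -0.16 (0.0267). With quantile normalization miR-9-3p was not called (0.11, limma adjusted p = 0.0726), and miR-124-3p was called at -0.15 (0.000861).

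The RT arrays of 48 h and 96 h, the 2 brain arrays with an RIN under 6, were also compared with the others, with the slide as a block. Both are on the RT slide, so the differences are from the 6 RT arrays of 0 to 24 h of the same animal. The 4 °C arrays entered only through the spread, and the differences restate the late levels given above. miR-9-5p was 2.89-fold lower (limma adjusted p = 0.00489), miR-124-5p 2.06-fold (0.0183) and miR-9-3p 1.83-fold (0.039), while miR-124-3p differed by -0.41 ± 0.23 log2 (0.118). Here 60.9% of 815 miRNAs were called and 28.3% were lower. The array of 48 h alone gave no call for the 4 arms (limma adjusted p = 0.208 for miR-9-5p). Without scaling between arrays none was called, with differences of -0.60 for miR-9-5p (limma adjusted p = 0.216), -0.12 for miR-124-5p (0.875), 0.0602 for miR-9-3p (0.958) and 0.53 for miR-124-3p (0.129). With quantile normalization miR-9-3p was not called (-0.41, limma adjusted p = 0.0995) and miR-124-3p was called higher, at 0.48 (0.0194).

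Correlations with storage time over the 8 RT pieces of 1 brain were r = -0.89 for miR-9-5p (exact permutation p = 0.0145, adjusted over 815 miRNAs 0.041) and -0.81 for miR-124-5p (0.0115, adjusted 0.0365). For miR-9-3p r was -0.68 (exact permutation p = 0.106) and for miR-124-3p -0.67 (0.069), and 41.6% of 815 miRNAs passed. Spearman's rho was -0.48 for miR-9-5p (exact permutation p = 0.243) and -0.67 for miR-124-5p (0.0831). Without the 2 arrays farthest from the median time, r was -0.00148 for miR-9-5p, -0.35 for miR-124-5p, -0.08 for miR-9-3p and 0.43 for miR-124-3p, so that the relation rests on those arrays. At 4 °C none of the 4 passed (r from -0.56 to -0.19, exact permutation p from 0.15 to 0.584), where 4.29% of 815 miRNAs did.

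The direction of miR-124-3p at RT depended on how arrays were scaled to each other. Its scanner signal rose from 7191 units at 0 h to 17382 at 96 h, that of miR-9-3p from 2437 to 4712 units and that of miR-124-5p from 23.7 to 30.4 units. Over the same span the signal of miR-9-5p fell from 2554 to 1978 units, after 6946 at 1 h. The summed signal of detected miRNAs on these arrays was 249616 and 402169 units, and 491 and 798 miRNAs were detected, so that the array of 96 h carried signal on many more probes.

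Without any scaling the median slope of all 815 miRNAs at RT was 0.28 log2 per 24 h, against -0.03 after VSN. Relative to that median the slopes without scaling were -0.52 for miR-9-5p, -0.34 for miR-124-5p, -0.25 for miR-9-3p and -0.08 for miR-124-3p. The order of the 4 arms was the same as after VSN. Scaling shifts the log2 values of these arms on an array by nearly the same amount, so this was no separate check. As measured, the unscaled slopes were -0.23 ± 0.12 for miR-9-5p (limma adjusted p = 0.128), -0.0545 ± 0.12 for miR-124-5p (0.822), 0.20 ± 0.08 for miR-124-3p (0.0606) and 0.0346 ± 0.13 for miR-9-3p (0.91), and none of the 4 was called.

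With quantile normalization miR-124-3p was called higher with time at RT, at 0.20 ± 0.04 (limma adjusted p = 0.000423), while 75th percentile scaling called it lower, at -0.16 ± 0.06 (0.0388). No direction is given for miR-124-3p for this reason. miR-9-5p fell by all 3 of VSN, quantile normalization (-0.49) and 75th percentile scaling (-0.59), and so did miR-124-5p (-0.39, -0.14 and -0.41) and miR-9-3p (-0.31, -0.17 and -0.32), while without scaling miR-9-3p turned and the other two were not called. These calls likewise include the array of 96 h.

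**Figure D5:**
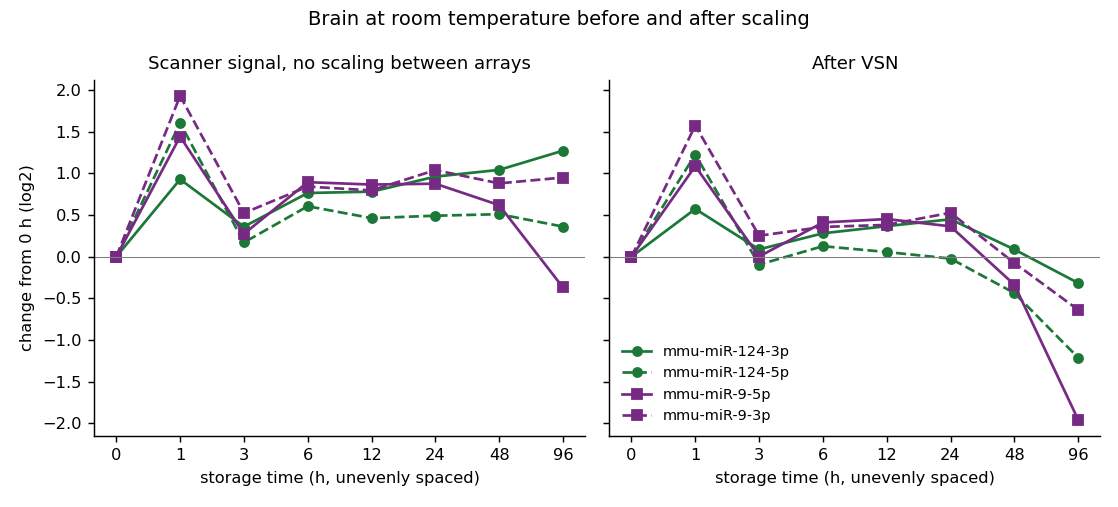
Change from 0 h (log2) of the 4 arms in brain at RT, as scanner signal without scaling between arrays (left) and after VSN (right), 1 point per array. miR-9-5p is lowest at 96 h in both panels, while miR-124-3p is above 0 h in the left panel and below it in the right.

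All 4 arms were highest on the same array of a slide. The RT array of 1 h (RIN 8.0) had the highest level of its slide for 4 of the 4 arms, for 14 of the 20 other neural miRNAs and for 31.3% of all 815. The 4 °C array of 3 h (RIN 8.4) was highest for 4 of 4 arms, 9 of 20 and 27.1% of all. The arrays of 96 h were highest for more of all 815 miRNAs, 34.0% at RT and 27.4% at 4 °C, but for 0 of the 4 arms. On the RT array of 1 h all lists of marker miRNAs of other cells had their highest summed scanner signal of the slide, without scaling between arrays. It was 2256 units for the 3 red blood cell miRNAs (391 to 1245 on the other RT arrays). The 2 endothelial ones had 1904 (632 to 1311) and the 4 oligodendrocyte ones 8531 (1272 to 7217). The 4 heart muscle miRNAs had 255.5 (46.5 to 121.7) and the 3 hepatocyte ones 68.7 (14.1 to 49.1). Which part of the brain each piece held is not given in the sources used here, and the part of tissue makeup in these values was not tested. The RT array of 1 h is also where the 2 probes of miR-124-3p parted most, at a log2 ratio of -2.35, while the median over 16 arrays was -1.48.

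The 20 other neural miRNAs are a list of miRNAs known from neurons or brain. Of them, 17 were called higher in brain than in heart and 18 higher than in liver, against 22.6% and 31.2% of all 815. After VSN 11 of 20 were called lower in brain at RT, against 30.8% of all, and 0 higher. Their median slope was -0.31, where the median over all 815 was -0.03. Of the 650 miRNAs detected on at least 10 arrays, 240 were called lower. Without scaling between arrays 8 of all 815 were called lower at RT and 409 higher. How many of the 20 stay called without scaling, or without the array of 96 h, was not counted. The lowest were miR-135a-5p at -0.58 ± 0.17 (limma adjusted p = 0.00897) and miR-149-5p at -0.56 ± 0.11 (0.000731), slopes close to that of miR-9-5p. miR-137-3p, which like miR-124 is tied to neuronal differentiation, fell by 0.39 ± 0.12 (0.0094). Of the rest, miR-873a-5p, miR-488-3p, miR-384-5p, miR-485-5p, miR-487b-3p, miR-129-5p, miR-383-5p and miR-212-3p were called, with slopes from -0.34 to -0.24. The activity-dependent miR-132-3p (-0.12 ± 0.12, 0.349) and the neuronal miR-128-3p (-0.16 ± 0.14, 0.303) did not pass, like miR-124-3p.

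At 4 °C 0 of the 20 were called, and 0 differed in slope between the temperatures. After VSN, 10 of the 20 were called higher with RIN and 10 lower in the degraded brain arrays, against 32.0% and 28.3% of all 815. The miRNAs that mark other cells were counted in brain at RT after VSN too, where 30.8% of all 815 were called lower. Called lower were 0 of 4 oligodendrocyte, 1 of 4 heart muscle, 2 of 3 hepatocyte, 1 of 3 red blood cell and 2 of 2 endothelial miRNAs. Their median slopes were -0.22, -0.28, -0.31, -0.17 and -0.36 in the same order. Only 2 of the 4 heart muscle and 1 of the 3 hepatocyte miRNAs were detected on every brain array.

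The miRNAs with the most similar pattern were found by Pearson's r, as a description and with no test. Over all 45 arrays, where the difference between brain and the other tissues sets the pattern, the most similar to miR-9-5p was miR-9-3p (r = 0.992), followed by miR-127-3p (0.991), miR-136-3p, miR-434-3p and miR-495-3p (0.989 each). Those of miR-124-3p were miR-127-5p (0.971), miR-129-2-3p, miR-300-3p, miR-598-3p and miR-136-5p. For miR-124-5p they were miR-129-1-3p (0.984), miR-300-5p, miR-129-2-3p, miR-488-3p and miR-873a-5p, and for miR-9-3p after its own 5p arm miR-300-3p (0.987), miR-410-3p, miR-127-3p and miR-136-5p. The guide arm of miR-124 was not among the 5 most similar of its passenger arm, nor the reverse.

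Over the 16 brain arrays after subtracting slide means, among 431 other miRNAs detected on all of them, the most similar were different. For miR-9-5p they were let-7d-5p (r = 0.974), let-7e-5p, miR-125a-5p, miR-26a-5p and let-7a-5p, and for miR-9-3p miR-30e-3p (0.989), miR-142a-3p, miR-28a-5p, miR-29c-5p and miR-29b-1-5p. For miR-124-3p they were miR-16-5p (0.946), miR-203-3p, miR-3962, let-7i-5p and miR-30b-5p, and for miR-124-5p miR-27a-3p (0.962), miR-30e-3p, miR-340-3p, miR-24-3p and let-7a-1-3p. Between the 4 arms r ranged from 0.852 (miR-124-3p with miR-9-3p) to 0.944 (miR-124-5p with miR-9-3p), and was 0.858 between the arms of miR-124 and 0.881 between those of miR-9. All these values share the same 16 arrays and their scaling.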

How the data were processed

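The authors scanned 1-colour Agilent mouse miRNA arrays (Cyanine 3) and read intensity values with Feature Extraction (10.10.1.1 in the file headers). They deposited the scanner files and a VSN table on the log2 scale, which was used here, with medians of 0.14 to 0.93 per array. A VSN refit of the 46 arrays differed from the deposited log2 values by at most 0.00166, which settled scale and direction. As in the methods, a miRNA had to be detected on at least 5 arrays. A miRNA not detected has a log2 value near background.

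The members and lists were chosen with earlier results of these data known. The arms were always named, and other neural miRNAs where called in a brain fit. limma 3.58.1 in R 4.3.3 tested slide means between tissues, slopes per 24 h (slide intercepts and slopes), RIN and arm differences, with Benjamini-Hochberg adjustment over all 815 miRNAs or 148 hairpins at 0.05, checked on simulated data. Correlations used all 40320 orders of 8 arrays. The labels give 12 h where the methods give another hour. Alternatives were own VSN, 75th percentile scaling, no scaling, normexp (offset 50, on spot medians) with quantile normalization, other detection filters and left-out arrays.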

Additional observations from a re-analysis of the deposited data

Results flagged for a closer look

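In 24 groups, each arm on each slide, the highest and the lowest array were compared with their neighbours, and chance flags about 1 in 20 groups. All 4 groups in which an array stood far from the rest belong to miR-9-5p. In brain, its level was set apart upward at 4 °C by the array of 3 h (12.70) and downward at RT by that of 96 h (9.84). In heart, where the arm was not detected on either array, the arrays of 96 h were set apart downward, at 1.79 at 4 °C and 0.41 at RT. The heart values are close to background.

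The storage slope of miR-9-5p in brain differed between RT and 4 °C, at -0.47 log2 per 24 h (limma adjusted p = 0.0439). Slide, animal and temperature cannot be told apart here, and the call was lost on leaving out 11 of the 16 arrays in turn.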

How the results depend on the processing

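All 4 arms stayed called higher in brain than in heart and in liver under every alternative run. The numbers of miRNAs called between brain and heart and brain and liver ranged from 151 to 445 and 186 to 505 on leaving out a slide, and with RIN over 6 the latter was 506. The cause of the changes below was not tested. With the animal as a block, 336 miRNAs were called between brain and liver, against 295 without it, and all 4 arms stayed called, in a fit that rests on the spread pooled over miRNAs.

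Without scaling, slopes at RT were 0.20 for miR-124-3p, -0.0545 for miR-124-5p, -0.23 for miR-9-5p and 0.0346 for miR-9-3p, and that of miR-124-3p at 4 °C was 0.0369. The slope differences were 0.17 for miR-124-3p, -0.19 for miR-9-5p and 0.0901 for miR-9-3p. miR-124-3p and miR-9-3p had RIN slopes of -0.16 and -0.0398, degraded minus intact differences of 0.53 and 0.0602 and RT correlations of 0.70 and 0.0890, and at 4 °C r was 0.17 for miR-124-3p. Called miRNAs numbered 17 at 4 °C, 275 for the slope difference and 0 hairpins at 4 °C. With normexp and quantile normalization, miR-124-3p had slopes of 0.20 at RT and 0.0935 at 4 °C, a slope difference of 0.11, a RIN slope of -0.15, a degraded minus intact difference of 0.48 and correlations of 0.86 at RT and 0.82 at 4 °C. The arm difference of miR-9 between temperatures was 0.32 (called), and the counts were 34 at 4 °C, 229 for the slope difference, 4 and 47 hairpins at 4 °C and between temperatures, and 60 correlations at 4 °C. With 75th percentile scaling, miR-124-3p had slopes of -0.16 at RT (called) and 0.0414 at 4 °C and r = 0.36 at 4 °C. Slope differences were called for miR-124-5p (-0.38), miR-9-3p (-0.27) and the arms of miR-9 (0.28), and the counts were 26 at 4 °C, 226 for the slope difference and 0 hairpins at 4 °C.

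Without both 96 h arrays, slopes at RT were -0.41 for miR-124-5p, -0.33 for miR-9-5p and -0.30 for miR-9-3p, none called, and slope differences 0.13 for miR-124-3p and -0.11 for miR-9-5p. Arm slopes at RT were 0.37 for miR-124 and 0.0343 for miR-9, neither called, and those of miR-9 were 0.0896 at 4 °C and -0.0554 between temperatures. Counts fell to 216 miRNAs at RT, 8 at 4 °C, 4 for the slope difference, 207 for RIN, and 41 and 1 hairpins at RT and between temperatures.

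On the scale of log2(hours + 1), miR-9-3p (-0.15), the slope difference of miR-9-5p (-0.18) and the arms of miR-9 at RT (0.10) were not called, and the arms of miR-9 at 4 °C had 0.00614. The counts were 101 at 4 °C, 54 for the slope difference, and 7 and 5 hairpins at 4 °C and between temperatures. On the RT slide alone miR-9-3p (-0.31) and the arms of miR-124 (0.25) were not called, 316 miRNAs differed with degradation, and the 4 °C slide alone gave 35 miRNAs and 12 hairpins. With 14 h for 12 h, 5 miRNAs were called at 4 °C. With detection on at least 10 arrays 4 were, with 0 hairpins at 4 °C and 8 between temperatures. With no filter the slope difference of miR-9-5p (-0.47) was not called, and the counts were 943 at RT, 10 at 4 °C, 1010 for RIN, 817 for degradation, and 331 and 41 hairpins at RT and between temperatures. By Spearman's rho 216 miRNAs passed at RT and 53 at 4 °C, and without the 2 farthest arrays 0 by exact permutation at either temperature (102 and 68 unadjusted; r = 0.43 for miR-124-3p at RT).

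Leaving out 1 brain array gave RT slopes of -0.17 to -0.0384 for miR-124-3p, -0.42 to -0.31 for miR-124-5p, -0.63 to -0.33 for miR-9-5p and -0.36 to -0.22 for miR-9-3p, and -0.16 to 0.00136 for miR-124-3p at 4 °C. Slope differences ranged from -0.14 to 0.0254 for miR-124-3p and -0.52 to -0.22 for miR-9-5p. Arm slopes ranged from 0.20 to 0.37 for miR-124 and 0.0343 to 0.31 for miR-9 at RT, and for miR-9 from -0.0282 to 0.0896 at 4 °C and 0.0473 to 0.32 between temperatures. Counts ranged from 231 to 582 miRNAs at RT, 0 to 7 at 4 °C, 5 to 143 for the slope difference, 249 to 585 for RIN and 23 to 459 for degradation, and for hairpins from 44 to 73 at RT, 0 to 1 at 4 °C and 1 to 22 between temperatures.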
